A study of Mus musculus with 18 samples.

Results

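Type I interferons are secreted antiviral cytokines that bind the receptor IFNAR1/IFNAR2 and, through the kinases TYK2 and JAK1, activate ISGF3, a transcription factor complex that includes STAT2 and IRF9. ISGF3 binds a DNA element called the interferon stimulated response element and switches on interferon stimulated genes, whose products sense viral RNA, block its translation or degrade it. T cells respond to type I interferon as well as making interferon gamma, the type II interferon. The present results describe 34 interferon stimulated genes, chosen by symbol from a fixed list out of the 46073 genes of the count table, in mouse T cells recovered after bone marrow transplantation. All 34 passed the filter on low counts.

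The T cells came from spleens of C57BL/6 (CD45.2) donors that were wild type (WT) or knocked out for Wapl (KO), a factor that releases the cohesin ring from chromatin. Syngeneic recipients were B6.SJL-Ptprca Pepcb/BoyJ mice given 9.5 Gy and 8500000 donor T cells, and allogeneic recipients were CByJ.SJL(B6)-Ptprca/J mice given 8 Gy, split, and 1000000. All recipients also received 5000000 T cell depleted marrow cells, donors and recipients were 8 to 12 weeks old, and the WT donors and the recipients were female. On day 7 live CD3+ CD45.2+ donor cells were sorted from the spleen, and 3 libraries were analysed for WT and for KO cells from each type of recipient, 12 in all. Each library pooled cells of 2 to 4 mice. Transplant type, recipient strain, radiation dose and number of T cells changed together and cannot be told apart. The labels of the syngeneic KO samples name the syngeneic transplant in the field for transplant type and the allogeneic strain in the field for cell type, and the samples were grouped by transplant type. The Cre line, the deleted part of Wapl and the sex of the KO donors are not given in the sources used here, and naive T cells of the same study were not analysed here.

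The libraries held 45965659 to 89007100 counts. Levels are given in CPM, counts scaled to library size and composition. Wapl, listed as Wapal, was at 170 to 211 CPM in syngeneic WT, 127 to 139 in syngeneic KO, 156 to 169 in allogeneic WT and 124 to 151 in allogeneic KO, so transcripts were present in every library labelled KO. KO was lower than WT by 0.48 on the log2 scale after syngeneic transplantation (edgeR, adjusted p = 0.0368), and the difference of -0.20 after allogeneic transplantation was not called (adjusted p = 0.963). The 10 T cell markers, Cd3e, Trac and Lck among them, summed to 3771 to 6915 CPM in every library. Transcripts of red cell precursors were abundant in syngeneic WT alone: 8 markers summed to 2119 to 4821 CPM there, 22.5 to 91.7 in syngeneic KO, 12.6 to 33.3 in allogeneic WT and 12.8 to 19.7 in allogeneic KO. Markers of macrophages, monocytes and neutrophils summed to 469 to 871, 315 to 416, 440 to 661 and 145 to 522 CPM in the same order, and Ly6c2, which T cells also express, reached 404 CPM in syngeneic KO. Siglech, which defines plasmacytoid dendritic cells, a main source of type I interferon, was at 0.653, 1.44 and 1.64 CPM in syngeneic WT and at most 0.139 in the other 9 libraries. Together, 7 markers of these cells, Siglech among them, went the other way. They summed to 30.0 to 36.6 CPM in syngeneic WT, 32.2 to 36.8 in syngeneic KO, 66.2 to 112 in allogeneic WT and 58.6 to 77.6 in allogeneic KO. In bulk samples, fewer cells of a type and less RNA per cell cannot be told apart.

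RefSeq (GRCm38.p6) lists a promoter for 25 of the 34 genes, and the core of the interferon stimulated response element, which reads GAAA, any 2 bases and GAAA again, was searched on both strands in the 250 bases before the start site. It occurred in 10 of 25 members (40.0%), against 936 of 27025 genes with a listed promoter (3.46%). The letters TTCNNNGAA, the core of the interferon gamma activated site, occurred in 5 of 25 members and in 8.13% of all genes. The 160 bases before the start are printed for selected members, from 5′ to 3′ on the gene's strand. Each match to the core is in capitals (in TTTC letters where it lies on the other strand). The printed members that fell are those that hold the core. The other members that fell and have a listed promoter, Oasl1, Oasl2 and Ifit2 among them, hold no match and are not printed. The first 4 belong to genes that fell after allogeneic transplantation in WT cells:

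Ifit1, chr19:34640729-34640888, plus strand: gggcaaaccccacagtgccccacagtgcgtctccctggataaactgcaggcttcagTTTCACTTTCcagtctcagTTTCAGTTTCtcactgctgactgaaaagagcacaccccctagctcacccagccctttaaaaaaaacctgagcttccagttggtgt
Ifit3, chr19:34583369-34583528, plus strand: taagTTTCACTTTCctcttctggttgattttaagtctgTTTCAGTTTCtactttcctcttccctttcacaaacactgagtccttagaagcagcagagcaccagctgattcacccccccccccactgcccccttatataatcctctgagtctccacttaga
Isg15, chr4:156200819-156200978, minus strand: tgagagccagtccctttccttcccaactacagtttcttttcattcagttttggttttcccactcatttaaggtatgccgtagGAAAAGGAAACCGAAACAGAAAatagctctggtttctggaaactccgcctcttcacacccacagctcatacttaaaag
Rsad2, chr12:26456453-26456612, minus strand: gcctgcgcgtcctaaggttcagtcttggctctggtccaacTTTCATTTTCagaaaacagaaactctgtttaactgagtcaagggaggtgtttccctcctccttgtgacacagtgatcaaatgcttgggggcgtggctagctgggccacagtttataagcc

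Ifit1 has matches that begin 104 and 85 bases before the start, and those of Ifit3 begin at 156 and 122. In Isg15 3 overlapping matches begin 78, 72 and 66 bases before the start and form a single capital run. The match of Rsad2 begins at 120 bases. The promoters of Trim30d, which fell, and Oas3, which was not called, hold 1 match each, at 41 and 75 bases:

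Trim30d, chr7:104507850-104508009, minus strand: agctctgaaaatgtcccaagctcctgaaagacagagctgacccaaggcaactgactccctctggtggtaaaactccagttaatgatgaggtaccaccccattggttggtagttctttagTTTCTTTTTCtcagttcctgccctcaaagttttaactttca
Oas3, chr5:120777660-120777819, minus strand: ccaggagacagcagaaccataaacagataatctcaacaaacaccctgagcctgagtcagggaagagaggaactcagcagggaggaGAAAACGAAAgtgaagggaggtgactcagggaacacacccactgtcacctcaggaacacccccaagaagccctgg

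Ifih1, the only member that rose, holds no match in its window:

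Ifih1, chr2:62646256-62646415, minus strand: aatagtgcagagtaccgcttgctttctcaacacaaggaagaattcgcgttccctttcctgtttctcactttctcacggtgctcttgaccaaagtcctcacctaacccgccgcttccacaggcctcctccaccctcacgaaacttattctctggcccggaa

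Among the members with a listed promoter, 5 of the 15 that fell in allogeneic WT cells held the core, and so did 5 of the 10 others. In KO cells the counts were 4 of 9 and 6 of 16.

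In WT cells, 19 of the 34 members were lower after allogeneic than after syngeneic transplantation and 1, Ifih1, was higher, by edgeR's quasi-likelihood test with Benjamini-Hochberg adjusted p under 0.05. Over all 18447 genes tested, 15.9% were called lower and 16.4% higher. The median log2 fold change was -0.52 over the members and -0.03 over all genes. For 23 members all 3 allogeneic libraries lay below all 3 syngeneic ones, a separation that 27.5% of all genes showed in that direction.

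In KO cells, 14 members were lower and again only Ifih1 was higher, against 11.2% and 13.2% of all genes. The median log2 fold change was -0.36 over the members and -0.02 over all genes, and 14 members were lower without overlap (16.6% of all genes). The members lower in both genotypes numbered 13, which is 68.4% of those lower in WT and 92.9% of those lower in KO; over all genes, 53.3% and 75.9% were shared. Members called lower in WT but not KO were Eif2ak2, Cmpk2, Isg20, Samd9l, Isg15 and Herc6, and Mx1 was called in KO but not WT. The test of the difference itself, the interaction of transplant type and genotype, called 1 of the 34 members, Rsad2, against 0.477% of all genes.

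Markers of other cell types also differed between the transplant types. The 8 B cell markers summed to 64.6 to 85.3 CPM in syngeneic and 30.9 to 42.6 CPM in allogeneic libraries; 5 were called lower in WT, and 1 higher and 1 lower in KO. The 7 plasmacytoid dendritic cell markers in the table summed to 30.0 to 36.8 CPM in syngeneic and 58.6 to 112 CPM in allogeneic libraries. Of the 6 tested, Ccr9 and Il3ra rose in both genotypes, while Siglech (-3.83, adjusted p = 6.41e-04), Cox6a2 and Ly6d fell in WT and Ly6d fell in KO. The 6 NK cell markers summed to 26.8 to 49.7 CPM in syngeneic and 932 to 2236 CPM in allogeneic libraries, with up to 2169 CPM from Gzma, a granzyme that cytotoxic T cells also make. In each genotype 3 of these 6 rose and 2 fell, and the NK cell receptor genes Klra8 and Klra4 were near 0 in allogeneic libraries, with means of 0 and 0.0194 CPM in WT and of 0.00482 and 0.0215 CPM in KO. Of the 12 markers of macrophages, monocytes and neutrophils, 5 fell in WT, and 2 rose and 1 fell in KO. Beside these counts, 16.4% of all genes rose and 15.9% fell in WT, and 13.2% and 11.2% in KO. The part of these cell types in the changes of the members was not tested. Ribosomal RNA genes with Gm26917 and Yam1 held 20.2% to 32.1% of counts in syngeneic and 8.27% to 18.0% in allogeneic libraries, without overlap. In an edgeR fit without these genes Trim30a passed in WT (adjusted p = 0.0411) and Mx1 no longer passed in KO (adjusted p = 0.0542). The part of this share in the changes of the members was not tested beyond that fit.

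**Figure D1:**
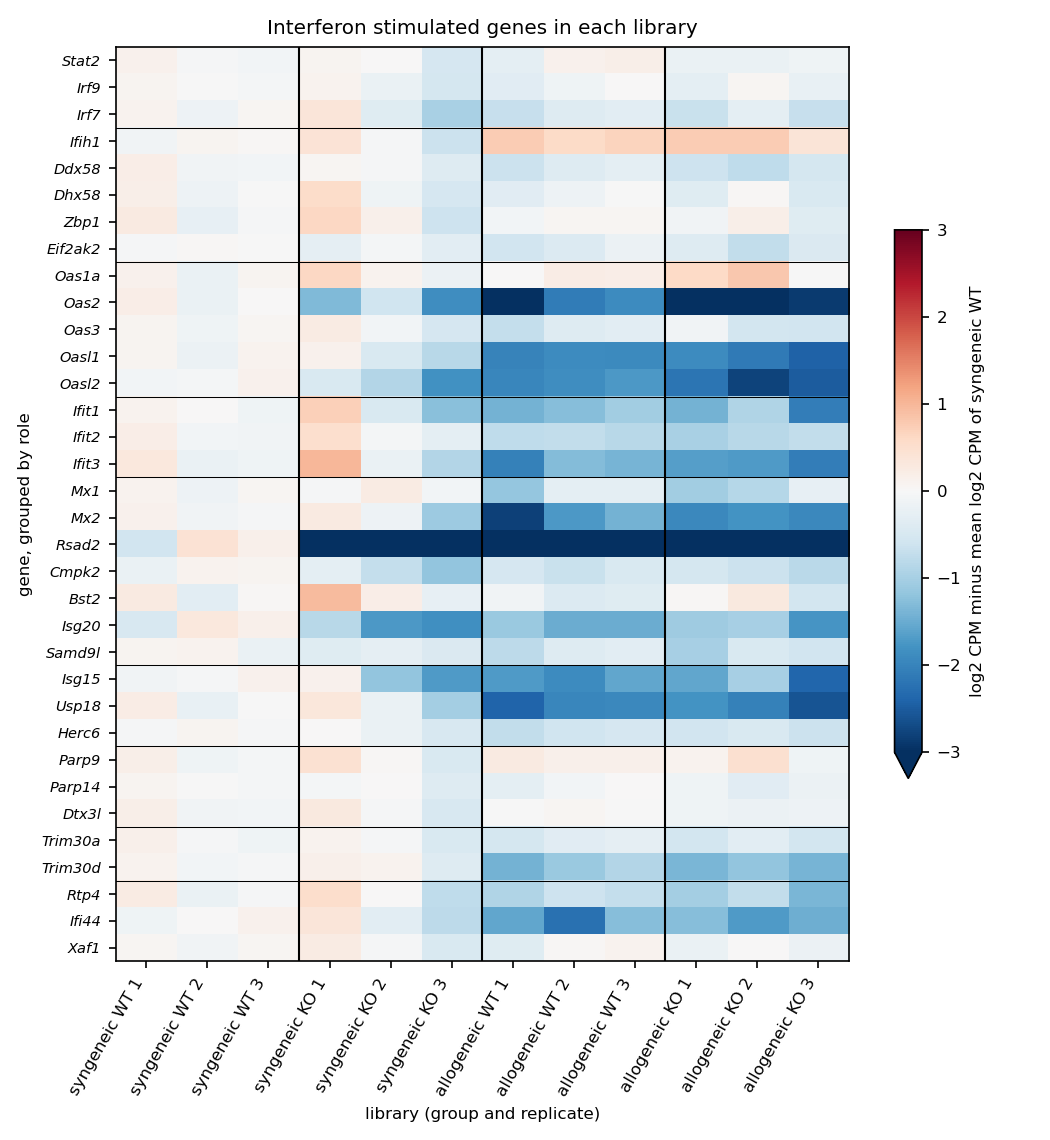
Levels of the 34 genes (rows, grouped by role) in the 12 libraries (columns), as log2 CPM minus the mean log2 CPM of the syngeneic WT libraries; blue is lower, red is higher, and values under -3 share the darkest blue. Oas2, Oasl1, Oasl2, Mx2, Usp18 and the Ifit genes are blue across all 6 allogeneic libraries, Rsad2 is dark blue in every library but those of syngeneic WT, and within syngeneic KO most genes are redder in replicate 1 and bluer in replicate 3.

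**Figure D2:**
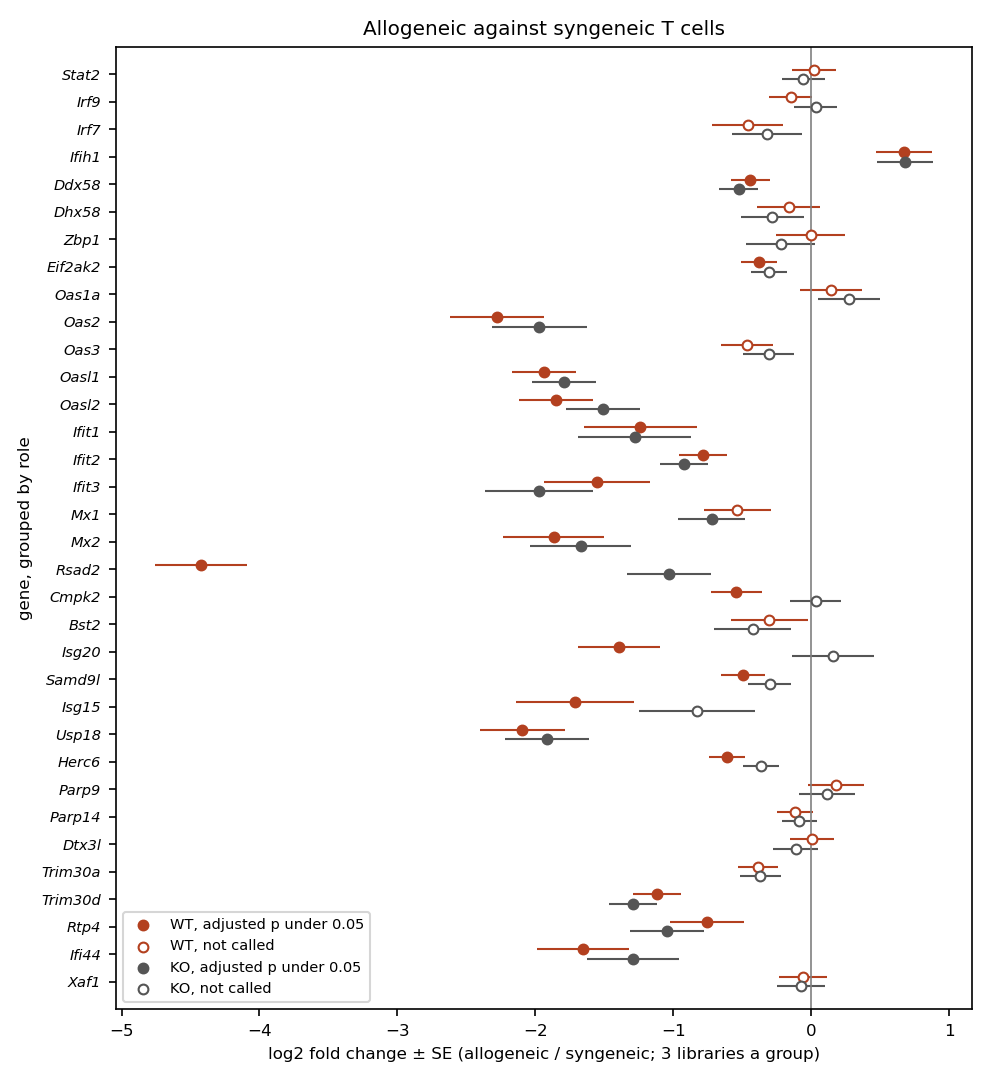
Log2 fold change of allogeneic against syngeneic transplantation for each of the 34 genes, in WT (red) and KO (grey), with bars of 1 standard error; filled points passed adjusted p under 0.05. Most filled points lie below 0, Ifih1 lies above 0 in both genotypes, and Rsad2 is far lower in WT (-4.43) than in KO (-1.03).

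The transcription factors that carry the signal, Stat2, Irf9 and Irf7, were not called in either genotype. Stat2 was at 59.0, 52.6 and 51.7 CPM in syngeneic WT, 57.3, 54.9 and 38.2 in syngeneic KO, 44.7, 59.1 and 61.8 in allogeneic WT and 47.3, 47.2 and 50.0 in allogeneic KO. The ranges of Stat2 overlapped between the transplant types in both genotypes, and its log2 fold change in WT was 0.02 ± 0.16 (SE). Irf7, which is itself interferon induced and amplifies interferon production, was at 88.3, 73.9 and 85.1 CPM in syngeneic WT, 105, 64.2 and 41.7 in syngeneic KO, 51.0, 62.5 and 66.2 in allogeneic WT and 51.4, 66.6 and 50.9 in allogeneic KO. All allogeneic WT libraries lay below all syngeneic WT libraries for Irf7, but the change of -0.46 ± 0.26 had an adjusted p of 0.188. It passed in a fit of these 2 groups alone (adjusted p = 0.0109).

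Sensors of viral nucleic acid moved in opposite directions. Ifih1 encodes MDA5, a sensor of long double-stranded RNA (chromosome 2, 62595798 to 62646255). It was at 37.8, 42.6 and 41.2 CPM in syngeneic WT, 53.4, 39.6 and 25.8 in syngeneic KO, 69.1, 59.9 and 64.8 in allogeneic WT and 69.1, 68.2 and 53.1 in allogeneic KO. Every allogeneic WT library was above every syngeneic WT library, while in KO the highest syngeneic library slightly exceeded the lowest allogeneic one. Ifih1 rose by 0.67 ± 0.20 on the log2 scale in WT (1.59-fold, adjusted p = 0.0238) and by 0.68 ± 0.20 in KO (adjusted p = 0.0283). Ddx58, which encodes RIG-I, the sensor of 5′ triphosphate RNA, fell by 0.44 ± 0.14 in WT (adjusted p = 0.0305) and by 0.53 ± 0.14 in KO (adjusted p = 0.0166). Ddx58 was at 152, 125 and 126 CPM in syngeneic WT, 139, 131 and 102 in syngeneic KO, 85.0, 103 and 109 in allogeneic WT and 86.9, 78.6 and 92.9 in allogeneic KO, with no overlap between the transplant types in either genotype. These shifts were small, and the calls of Ifih1 were lost without any 1 of the WT libraries other than allogeneic WT replicate 2 (adjusted p from 0.0515 to 0.0720) and without any 1 of 4 KO libraries (adjusted p from 0.0585 to 0.0864), the KO change being 0.45 without syngeneic KO replicate 3. The calls of Ddx58 were lost without any 1 of 4 WT libraries (adjusted p from 0.0512 to 0.133) or 3 KO libraries (adjusted p from 0.0642 to 0.0733).

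The other 3 sensors differed less. Eif2ak2, the kinase PKR that halts translation, fell by 0.38 ± 0.13 in WT (adjusted p = 0.0418) and had a change of -0.30 ± 0.13 in KO (adjusted p = 0.110); the WT call was lost without any 1 of 5 libraries (adjusted p from 0.0766 to 0.168). Zbp1, a sensor of Z-form nucleic acid that triggers cell death, was at 124, 86.1 and 99.4 CPM in syngeneic WT, 156, 113 and 66.4 in syngeneic KO, 95.6, 107 and 107 in allogeneic WT and 94.0, 115 and 79.6 in allogeneic KO. Those ranges of Zbp1 overlapped, and its log2 fold change in WT was 0.00 ± 0.25, with a 95% interval from -0.54 to 0.54. Dhx58, encoding the RIG-I regulator LGP2, was not called either.

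Members of the oligoadenylate synthetase family, which make the 2-5A messenger that activates RNase L or are catalytically inactive relatives, were called only in part. Oas2, Oasl1 and Oasl2 fell in both genotypes, while Oas1a and Oas3 were called in neither. Oas2 was at 32.3, 24.7 and 28.6 CPM in syngeneic WT, 11.3, 18.6 and 7.83 in syngeneic KO, 3.33, 6.65 and 7.67 in allogeneic WT and 3.19, 2.55 and 3.88 in allogeneic KO. Oas2 fell by 2.27 ± 0.34 in WT (4.84-fold lower, adjusted p = 3.12e-04) and by 1.97 ± 0.34 in KO (adjusted p = 0.00124), with no overlap in either genotype. Oasl1 was at 12.8, 10.9 and 13.03 CPM in syngeneic WT, 13.2, 8.90 and 6.84 in syngeneic KO, 3.04, 3.32 and 3.24 in allogeneic WT and 3.31, 2.80 and 2.27 in allogeneic KO. In both genotypes every allogeneic library was below the lowest syngeneic one, a drop of 1.93 ± 0.23 in WT (adjusted p = 4.50e-05) and of 1.79 ± 0.23 in KO (adjusted p = 1.15e-04).

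Oasl2, next to Oasl1 on chromosome 5, fell by 1.85 ± 0.27 in WT (adjusted p = 2.25e-04) and by 1.51 ± 0.27 in KO (adjusted p = 0.00132). Oas3 lies 3244 bases from Oas2 and changed less. Its levels were 197, 169 and 192 CPM in syngeneic WT, 220, 175 and 131 in syngeneic KO, 113, 141 and 150 in allogeneic WT and 173, 127 and 125 in allogeneic KO. In WT the allogeneic libraries were all lower than the syngeneic ones for Oas3, but the change of -0.46 ± 0.19 had an adjusted p of 0.0762 (0.0131 in a fit of these 2 groups alone). Oas1a had changes of 0.14 ± 0.23 in WT and 0.28 ± 0.23 in KO. Oas1a has near copies such as Oas1g, and counts between near copies can be split by the authors' counting, so its values are uncertain.

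All 3 Ifit genes, whose products bind viral RNA that lacks normal cap methylation or block its translation, fell in both genotypes. They lie within a cluster on chromosome 19. Ifit1 was at 24.8, 23.2 and 20.9 CPM in syngeneic WT, 37.3, 16.7 and 9.64 in syngeneic KO, 8.62, 9.42 and 11.1 in allogeneic WT and 8.61, 12.1 and 5.44 in allogeneic KO. The WT ranges of Ifit1 did not overlap, the KO ranges did, and syngeneic KO spanned from above syngeneic WT to the allogeneic level. Ifit1 fell by 1.24 ± 0.41 in WT (adjusted p = 0.0379) and by 1.28 ± 0.41 in KO (adjusted p = 0.0419). The KO call of Ifit1 was lost without any 1 of 4 KO libraries (adjusted p from 0.0591 to 0.169), the change being -0.55 without syngeneic KO replicate 1, and the WT call was lost without any 1 of the 6 WT libraries (adjusted p from 0.0647 to 0.124).

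Ifit2 was at 50.7, 42.0 and 41.3 CPM in syngeneic WT, 63.0, 43.1 and 36.1 in syngeneic KO, 26.2, 26.8 and 24.9 in allogeneic WT and 22.8, 25.2 and 26.9 in allogeneic KO. The 6 allogeneic libraries were tightly grouped and all lay below the 6 syngeneic ones, and Ifit2 fell by 0.78 ± 0.17 in WT (adjusted p = 0.00422) and by 0.92 ± 0.17 in KO (adjusted p = 0.00194). Ifit3 was at 21.0, 14.8 and 15.6 CPM in syngeneic WT, 33.6, 14.9 and 9.16 in syngeneic KO, 4.18, 6.91 and 6.46 in allogeneic WT and 5.42, 5.19 and 4.05 in allogeneic KO. It too separated fully by transplant type, with drops of 1.55 ± 0.38 in WT (adjusted p = 0.00893) and of 1.98 ± 0.39 in KO (adjusted p = 0.00304). Its near copy Ifit3b fell by 1.54 ± 0.39 in WT and 2.23 ± 0.41 in KO, and how counts were divided between the pair is uncertain.

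Among 7 direct antiviral effectors, 5 fell in WT and 3 in KO. Rsad2, which encodes viperin, a radical SAM enzyme that makes a chain-terminating nucleotide (ENSMUSG00000020641, chromosome 12, 26442746 to 26456452, minus strand), had the largest change of the 34 genes. It was at 80.2, 160 and 132 CPM in syngeneic WT, 13.8, 8.61 and 6.64 in syngeneic KO, 4.39, 5.79 and 7.10 in allogeneic WT and 5.79, 4.37 and 4.14 in allogeneic KO. Syngeneic WT alone was high, at a mean of 124 ± 40.3 CPM (SD, n = 3) against 5.76 ± 1.35 in allogeneic WT. Rsad2 fell by 4.43 ± 0.33 in WT (21.5-fold lower, adjusted p = 1.50e-06) and by 1.03 ± 0.30 in KO (adjusted p = 0.0276). The KO call was lost without syngeneic KO replicate 1 (-0.65, adjusted p = 0.109), allogeneic KO replicate 2 (adjusted p = 0.119) or allogeneic KO replicate 3 (adjusted p = 0.0860).

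The 2 Mx genes belong to a family of dynamin-like GTPases that trap viral ribonucleoproteins, and whether these cells make active Mx protein was not tested. Mx2 was low, at 4.53, 3.83 and 4.04 CPM in syngeneic WT, 4.98, 3.71 and 1.94 in syngeneic KO, 0.590, 1.24 and 1.56 in allogeneic WT and 1.08, 1.18 and 1.07 in allogeneic KO. It separated by transplant type without overlap and fell by 1.87 ± 0.37 in WT (adjusted p = 0.00195) and by 1.67 ± 0.37 in KO (adjusted p = 0.00528). Mx1 was at 15.03, 12.6 and 14.6 CPM in syngeneic WT, 13.7, 16.7 and 13.3 in syngeneic KO, 6.32, 11.4 and 11.4 in allogeneic WT and 6.80, 7.76 and 11.9 in allogeneic KO. Mx1 was lower without overlap in both genotypes, with a change of -0.54 ± 0.24 in WT (adjusted p = 0.109) and a drop of 0.72 ± 0.24 in KO (adjusted p = 0.0476) that was lost without any 1 of 5 KO libraries. Mx1 and Mx2 resemble each other and lie 72400 bases apart, so a division of counts between them cannot be checked here.

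Cmpk2, a nucleotide kinase gene 12751 bases from Rsad2 and on the opposite strand, changed far less than its neighbour. It was at 31.2, 38.4 and 37.7 CPM in syngeneic WT, 29.0, 21.8 and 15.6 in syngeneic KO, 25.3, 22.4 and 25.9 in allogeneic WT and 24.9, 22.7 and 20.4 in allogeneic KO. Syngeneic WT was again the highest group without overlap, and Cmpk2 fell by 0.54 ± 0.19 in WT (adjusted p = 0.0405), with a change of 0.03 ± 0.19 in KO. Isg20, an exonuclease of single-stranded RNA on chromosome 7, was at 31.0, 54.2 and 48.4 CPM in syngeneic WT, 24.4, 13.1 and 12.0 in syngeneic KO, 19.9, 15.4 and 15.5 in allogeneic WT and 20.8, 21.7 and 12.7 in allogeneic KO. Isg20 shared with Rsad2 a high level in syngeneic WT alone, and it fell by 1.39 ± 0.30 in WT (adjusted p = 0.00361) with a change of 0.16 ± 0.29 in KO.

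Bst2, the tetherin that holds budding virions at the cell surface, was at 40.3, 26.8 and 33.9 CPM in syngeneic WT, 64.1, 38.1 and 28.1 in syngeneic KO, 30.9, 25.1 and 25.9 in allogeneic WT and 33.9, 40.5 and 22.8 in allogeneic KO. Its ranges overlapped and it was not called (log2 fold change -0.30 ± 0.28 in WT and -0.42 ± 0.28 in KO). Samd9l, a translational restriction factor, fell by 0.49 ± 0.16 in WT (adjusted p = 0.0310) and had a change of -0.30 ± 0.16 in KO.

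ISG15 is a ubiquitin-like protein that is attached to other proteins, and Usp18 removes it and also dampens signalling at IFNAR2. All 3 members of this system fell in WT cells. Isg15 was at 27.8, 29.5 and 32.9 CPM in syngeneic WT, 32.6, 13.1 and 9.26 in syngeneic KO, 9.28, 8.08 and 10.2 in allogeneic WT and 10.2, 14.996 and 5.79 in allogeneic KO. The WT groups were separate and tight (30.0 ± 2.60 against 9.18 ± 1.06 CPM, SD, n = 3), whereas the KO groups overlapped. Isg15 fell by 1.71 ± 0.43 in WT (3.27-fold lower, adjusted p = 0.0103), and its KO change was -0.83 ± 0.42 (adjusted p = 0.178).

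Usp18 was at 40.5, 29.6 and 34.4 CPM in syngeneic WT, 43.6, 30.2 and 17.02 in syngeneic KO, 6.52, 8.87 and 9.06 in allogeneic WT and 9.92, 8.44 and 5.73 in allogeneic KO. Every allogeneic library lay below every syngeneic one, and Usp18 fell by 2.09 ± 0.31 in WT (4.27-fold lower, adjusted p = 2.64e-04) and by 1.92 ± 0.31 in KO (3.78-fold lower, adjusted p = 6.67e-04). Herc6, the mouse ligase for ISG15, fell by 0.61 ± 0.13 in WT (adjusted p = 0.00352), with a KO change of -0.36 ± 0.13 (adjusted p = 0.0623). Ube2l6, which encodes the conjugating enzyme that passes ISG15 to the ligase and is no member of the list, fell by 2.39 ± 0.29 in WT (adjusted p = 5.83e-05) and had a KO change of 0.78 ± 0.28 (adjusted p = 0.0648). Uba7, the activating enzyme, fell by 0.66 ± 0.14 in WT (adjusted p = 0.00344) and by 0.42 ± 0.14 in KO (adjusted p = 0.0480).

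The ADP-ribosyltransferases Parp9 and Parp14 and the ubiquitin ligase Dtx3l, a partner of Parp9, showed no called change, and their log2 fold changes lay between -0.12 and 0.18 in both genotypes. Parp9 and Dtx3l overlap by 682 bases on opposite strands, and without a stated strand setting the reads of that stretch cannot be assigned. Trim30d fell while its paralog Trim30a, 4820 bases away, was not called. Trim30d was at 20.9, 18.4 and 19.1 CPM in syngeneic WT, 21.5, 20.9 and 14.9 in syngeneic KO, 7.32, 8.92 and 10.7 in allogeneic WT and 7.51, 8.52 and 7.41 in allogeneic KO. It separated fully by transplant type, with drops of 1.12 ± 0.17 in WT (adjusted p = 3.30e-04) and of 1.29 ± 0.17 in KO (adjusted p = 1.54e-04), against -0.39 ± 0.15 for Trim30a in WT (adjusted p = 0.0594) and -0.37 ± 0.15 in KO. Trim30a passed in WT in a fit of the 2 groups alone (adjusted p = 0.0168), with the replicate block within them (adjusted p = 0.0498) and without ribosomal RNA genes, Gm26917 and Yam1 (adjusted p = 0.0411), and in KO without syngeneic KO replicate 3 (-0.51, adjusted p = 0.0194).

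Of the remaining 3 members, Ifi44 and Rtp4 fell in both genotypes and the apoptosis factor Xaf1 was called in neither (-0.06 ± 0.17 and -0.07 ± 0.17). Ifi44 was scarce, at 2.07, 2.28 and 2.45 CPM in syngeneic WT, 2.91, 1.80 and 1.31 in syngeneic KO, 0.763, 0.478 and 0.930 in allogeneic WT and 0.938, 0.701 and 0.825 in allogeneic KO. It did not overlap between transplant types and fell by 1.65 ± 0.33 in WT (adjusted p = 0.00227) and by 1.29 ± 0.33 in KO (adjusted p = 0.0130). Rtp4, a receptor transporter protein, was at 35.7, 26.3 and 29.3 CPM in syngeneic WT, 43.7, 30.7 and 17.7 in syngeneic KO, 16.3, 19.5 and 18.3 in allogeneic WT and 14.97, 18.0 and 11.6 in allogeneic KO. Its WT ranges were separate and its KO ranges met only at 17.7 and 18.0, and it fell by 0.76 ± 0.27 in WT (adjusted p = 0.0456) and by 1.05 ± 0.27 in KO (adjusted p = 0.0130). In WT, 13 of the 20 calls were kept under all 14 alternative settings tried (Oas2, Oasl1, Oasl2, Ifit2, Ifit3, Mx2, Rsad2, Isg20, Isg15, Usp18, Herc6, Trim30d and Ifi44), and without allogeneic WT replicate 1 only 13 of the 34 were called. In KO, 8 of 15 were kept under all 14 (Oas2, Oasl1, Oasl2, Ifit2, Ifit3, Mx2, Usp18 and Trim30d). The WT calls of Cmpk2, Samd9l and Rtp4 were lost without 5, 4 and 6 of the 6 WT libraries, each left out in turn (adjusted p from 0.0610 to 0.141), and the KO call of Ifi44 without syngeneic KO replicate 1 (adjusted p = 0.0527) or allogeneic KO replicate 2 (adjusted p = 0.0509).

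Per kilobase of exon, the members differed widely in level. In syngeneic WT, Isg15 (39.7 CPM per kb), Bst2 (37.3), Dtx3l (35.9), Zbp1 (29.2) and Rsad2 (28.6) were the most abundant, and Ifi44 (0.37) the least. In allogeneic WT, Dtx3l (36.1 CPM per kb), Bst2 (30.2) and Zbp1 (29.2) kept similar levels, while Isg15 was at 12.1 and Rsad2 at 1.33.

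Few of these genes were called between KO and WT. After syngeneic transplantation 2 of 34 members, Rsad2 and Isg20, were lower in KO than in WT and none was higher, against 2.63% and 0.743% of all genes, and the median log2 fold change was -0.12 over the members and 0.06 over all genes. Rsad2 fell by 3.68 ± 0.32 (12.8-fold lower, adjusted p = 1.20e-04), from 124 ± 40.3 to 9.69 ± 3.70 CPM (SD, n = 3). Isg20 fell by 1.43 ± 0.30 (2.70-fold lower, adjusted p = 0.0198), from 44.5 ± 12.1 to 16.5 ± 6.83 CPM. For 7 members all KO libraries lay below all WT libraries, against 10.1% of all genes in that direction.

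Replicate numbers were taken to pair the syngeneic WT and KO libraries, and with replicate number as a block within these 2 groups the change of Rsad2 was -3.72 (adjusted p = 0.102) and that of Isg20 was -1.51 (adjusted p = 0.249), while Samd9l passed (-0.40, adjusted p = 0.0282). The call of Isg20 was also lost without any 1 of syngeneic WT replicate 2 or 3 or syngeneic KO replicate 2 or 3 (adjusted p from 0.0642 to 0.103). Oas2 had a change of -1.18 ± 0.33 (adjusted p = 0.0846), Oasl2 of -0.96 ± 0.26 (adjusted p = 0.0750) and Cmpk2 of -0.69 ± 0.19 (adjusted p = 0.0707). These 3 were not called by edgeR and were called by DESeq2 (adjusted p = 0.00987, 0.00904 and 0.0117). Without syngeneic KO replicate 1, 5 members were called, with Oasl2 (adjusted p = 0.0134), Cmpk2 (adjusted p = 0.00968) and Isg15 (-1.46, adjusted p = 0.0340) beside Rsad2 and Isg20.

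The red cell precursor markers, like Rsad2 and Isg20, were highest in syngeneic WT. All 8 fell in WT cells after allogeneic transplantation and 7 of 8 fell in syngeneic KO against syngeneic WT. Hbb-bs, the beta globin gene, was at 886, 1786 and 1512 CPM in the 3 syngeneic WT libraries and between 1.68 and 24.7 in the other 9. Within syngeneic WT, replicate 1 was the lowest and replicate 2 the highest for Hbb-bs, for the heme synthesis gene Alas2 (128, 292 and 247 CPM), for Rsad2 and for Isg20. Replicate 1 was the lowest for 35.5% of all tested genes and for 8 of the 34 members. Replicate 2 was the highest for 33.2% of all tested genes and for 7 of the 34 members. Within syngeneic KO the orders differed. The red cell precursor markers summed to 26.9, 22.5 and 91.7 CPM in replicates 1, 2 and 3, highest in replicate 3. Rsad2 was at 13.8, 8.61 and 6.64 CPM and Isg20 at 24.4, 13.1 and 12.0 CPM, both lowest in replicate 3. Ube2l6 also fell in syngeneic KO against syngeneic WT, by 3.11 ± 0.30 (adjusted p = 1.74e-04), from 55.9 ± 18.9 to 6.47 ± 1.41 CPM. Of 12 markers of macrophages, monocytes and neutrophils, 6 fell in the same contrast, and the median log2 fold change of the 12 was -3.50. The complement gene C1qa, which macrophages express, fell from at most 3.66 to at most 0.0992 CPM. The neutrophil gene S100a9 had a highest level of 296 CPM in syngeneic WT and 14.8 in syngeneic KO (adjusted p = 0.0802), and the lysozyme gene Lyz2 had means of 97.4 ± 53.7 and 7.44 ± 7.42 CPM (adjusted p = 0.126). Siglech fell by 4.55 (adjusted p = 0.00319), the 1 plasmacytoid dendritic cell marker of 6 that was called. The part of these cell types in the changes of Rsad2, Isg20 and Ube2l6 was not tested.

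**Figure D3:**
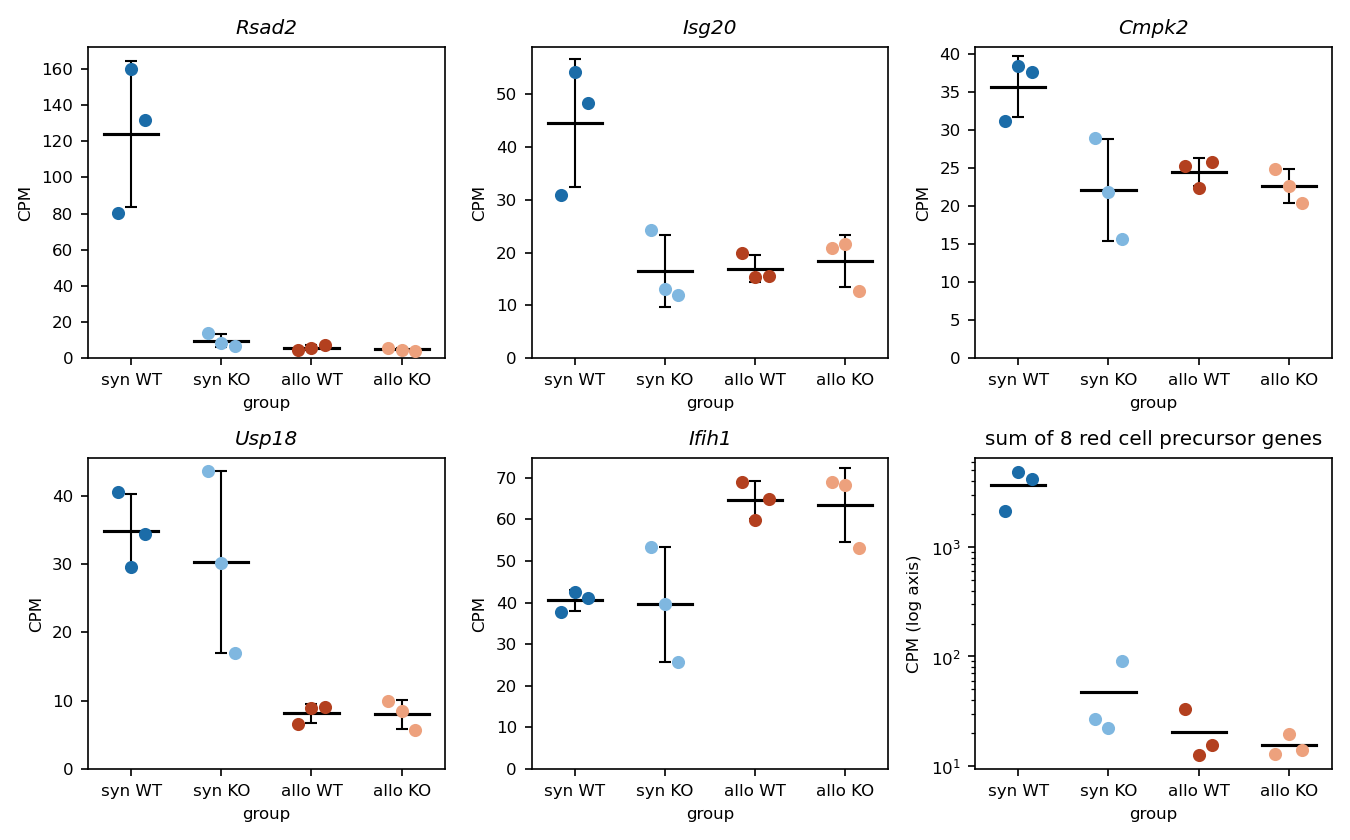
Levels in CPM of Rsad2, Isg20, Cmpk2, Usp18 and Ifih1 and, on a log axis, the summed CPM of 8 red cell precursor genes; each point is a library (3 a group), lines are means and bars are the SD, drawn for the single genes. Rsad2, Isg20 and the red cell precursor sum are high in syngeneic WT alone, Usp18 is high in both syngeneic groups, and Ifih1 is higher in the allogeneic groups.

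After allogeneic transplantation, edgeR called none of the 34 members between KO and WT, and DESeq2 also called 0. Over all genes edgeR called 0.0542%. An unadjusted p under 0.05 was found for 2 of the 34 members, Oas2 and Oasl2, and for 771 of the 18447 genes tested. Oas2 had a change of -0.88 ± 0.34, with a 95% interval from -1.61 to -0.14, and Oasl2 of -0.62 ± 0.26 (adjusted p = 0.963 for both). The member changes lay between -0.88 and 0.35. The 95% interval of Usp18 ran from -0.68 to 0.62 and that of Isg15 from -0.76 to 1.09. These intervals are not adjusted for the number of genes, and differences within them are compatible with the data. The effect of genotype on Rsad2 differed between transplant types by 3.40 ± 0.43 on the log2 scale (interaction, adjusted p = 0.00583), a call kept under all 18 alternatives tried. These alternatives held a replicate block over all 12 libraries but none within the syngeneic groups alone. With that narrower block the syngeneic change of Rsad2 was not called (edgeR, adjusted p = 0.102). For Isg20 the interaction was 1.55 ± 0.42 (adjusted p = 0.213, and 0.0181 by DESeq2), and for Cmpk2 0.58 ± 0.26 (adjusted p = 0.795).

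**Figure D4:**
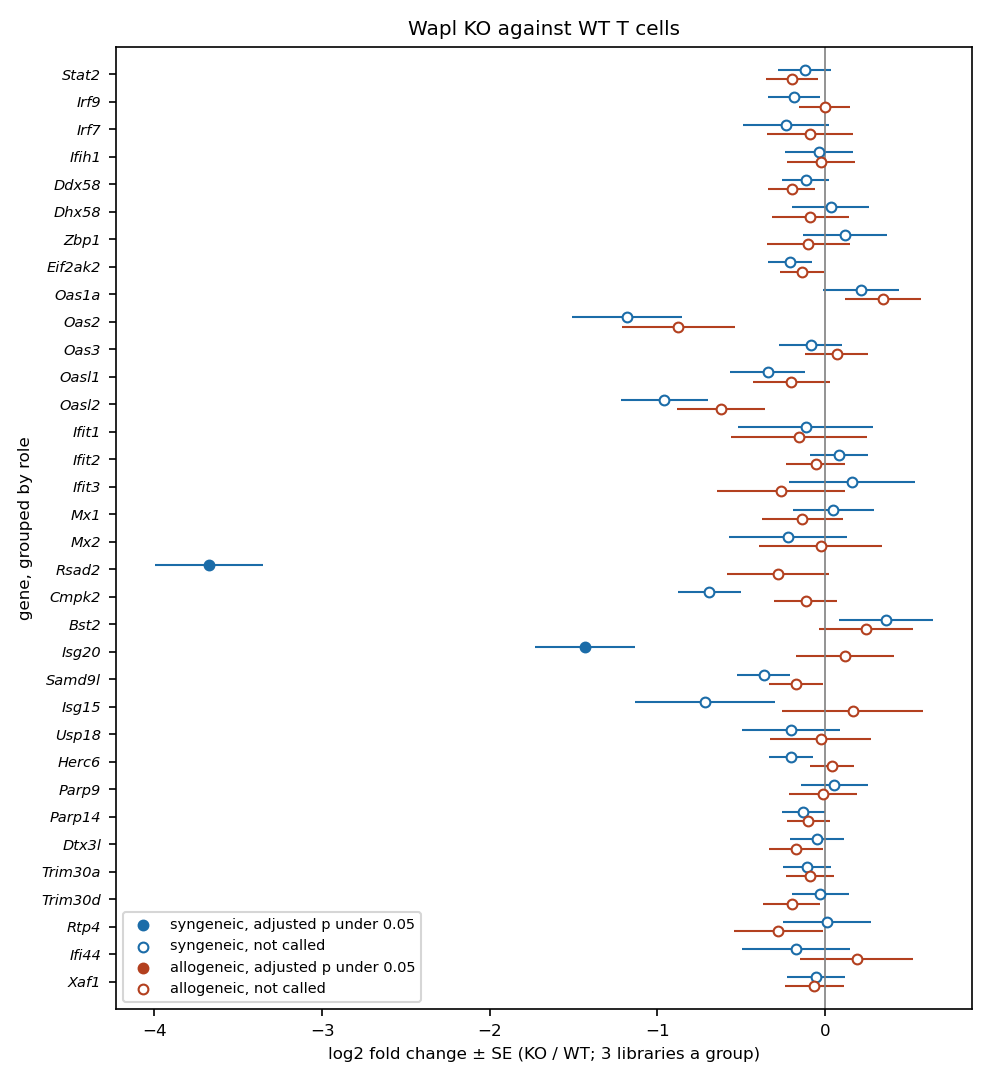
Log2 fold change of KO against WT for each of the 34 genes after syngeneic (blue) and allogeneic (red) transplantation, with bars of 1 standard error; filled points passed adjusted p under 0.05. The filled points are Rsad2 (-3.68) and Isg20 (-1.43) after syngeneic transplantation; all red points are open.

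The members spread widely among the syngeneic KO libraries. Their summed level was 2272 CPM in replicate 1, 1841 in replicate 2 and 1344 in replicate 3. Replicate 3 was the lowest of the 3 for 34 of 34 members (37.5% of all tested genes), and replicate 1 the highest for 29 of 34 (44.2% of all). The level in replicate 1 divided by that in replicate 3 ranged from 1.02 to 3.87, with a median of 1.87, and exceeded 2 for 15 members. The median coefficient of variation was 32.4% over the members in syngeneic KO, against 13.7% over 12411 genes of at least 1.46 CPM on average. In syngeneic WT it was 9.98% over the members and 9.71% over those genes, in allogeneic WT 12.4% and 11.0%, and in allogeneic KO 17.2% and 18.0%.

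**Figure D5:**
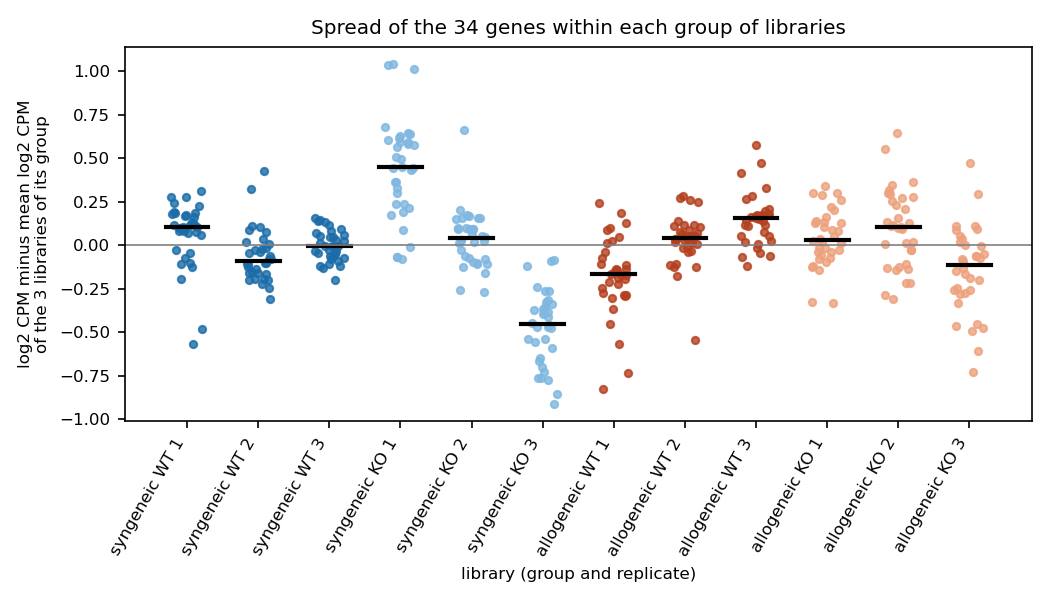
Each point is 1 of the 34 genes in 1 library, as its log2 CPM minus the mean log2 CPM of the 3 libraries of its group; black lines are medians over the genes. The points of syngeneic KO replicate 1 lie mostly above 0 and all those of replicate 3 below 0, a wider spread than in the other groups.

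Ifng and Gbp2, chosen after their values were seen, had the same order in syngeneic KO. Ifng was at 24.7, 15.2 and 6.35 CPM in replicates 1, 2 and 3. Gbp2, a GTPase induced by interferon gamma, was at 169, 108 and 56.1 CPM. The receptor gene Ifnar1 was at 125, 126 and 126 CPM. T cell markers summed to 6915, 4714 and 4310 CPM, and the share of counts from ribosomal RNA genes together with Gm26917 and Yam1 was 32.1%, 24.0% and 24.0%. The part of these in the spread of the members was not tested.

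Transcripts of type I and type III interferons themselves were scarce. The 19 genes in the table summed to 104 counts in syngeneic KO replicate 1 and to between 2 and 27 in the other 11 libraries; a count of 0 allows up to 3 counts. In syngeneic KO replicate 1 these were mainly interferon alpha genes, with 46 counts of Ifna2, 18 of Ifna1 and 13 of Ifna4. No other library had more than 3 counts of any of these 3 genes. Interferon alpha genes are near copies of each other, so the division of counts among them is uncertain. Ifnb1, the interferon beta gene, had 0 to 2 counts in every library.

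Interferon gamma was the only ligand with enough counts to be tested. Ifng was at 9.29, 9.36 and 10.1 CPM in syngeneic WT, 24.7, 15.2 and 6.35 in syngeneic KO, 41.2, 35.4 and 40.1 in allogeneic WT and 39.9, 72.1 and 33.6 in allogeneic KO. Both allogeneic groups lay above both syngeneic groups without overlap, and Ifng rose by 2.02 ± 0.41 in WT (adjusted p = 0.00333) and by 1.65 ± 0.40 in KO (adjusted p = 0.0122). Of 14 GTPase genes induced by interferon gamma, 2 rose and 6 fell in WT, and 0 rose and 6 fell in KO. Of all genes tested, 16.4% rose and 15.9% fell in WT, and 13.2% and 11.2% in KO. Gbp9 fell by 0.75 ± 0.16 in WT and 1.03 ± 0.16 in KO, and Tgtp1, a near copy of Tgtp2, by 1.74 ± 0.36 and 2.41 ± 0.37.

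The receptors and their proximal signalling changed in both directions, with 5 of 11 genes higher and 3 lower in WT and 3 higher and 3 lower in KO. The shares of all genes called higher and lower were 16.4% and 15.9% in WT and 13.2% and 11.2% in KO. The type I receptor chain Ifnar2 fell by 1.48 ± 0.11 in WT (adjusted p = 8.67e-07) and by 1.39 ± 0.11 in KO (adjusted p = 1.97e-06). The interferon gamma receptor chains moved apart: Ifngr2 fell by 2.205 ± 0.21 in WT and 2.43 ± 0.21 in KO, and Ifngr1 rose by 1.33 ± 0.14 and 1.20 ± 0.14. Jak2, the kinase bound to Ifngr2, rose by 0.67 ± 0.11 in WT and 0.51 ± 0.11 in KO.

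Genes of sensing and interferon induction were also divided, with 4 of 12 higher and 4 lower in WT and 3 higher and 4 lower in KO. In WT 16.4% of all genes were higher and 15.9% lower, and in KO 13.2% and 11.2%. The endosomal RNA receptor Tlr7 fell by 2.56 ± 0.21 in WT and 2.68 ± 0.21 in KO, and Tlr3 fell by 2.89 ± 0.46 and 1.89 ± 0.47. The transcription factor Irf5 rose by 1.72 ± 0.24 in WT and 1.74 ± 0.24 in KO. Of 7 brakes of interferon signalling, 2 rose and 1 fell in each genotype: the phosphatase Ptpn11 rose by 1.45 ± 0.11 in WT and 1.26 ± 0.11 in KO, and Socs3 fell by 0.72 ± 0.22 and 1.06 ± 0.22.

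A list of 39 other interferon stimulated genes had 10 lower and 2 higher in each genotype, with a median log2 fold change of -0.10 in WT and -0.13 in KO. Among all genes 15.9% were lower and 16.4% higher in WT, and 11.2% and 13.2% in KO, with medians of -0.03 and -0.02. Ms4a4c, a membrane protein gene, fell by 3.05 ± 0.24 in WT (adjusted p = 1.67e-06) and by 2.84 ± 0.24 in KO (adjusted p = 4.03e-06), and the RNA helicase gene Ddx60 by 1.42 ± 0.21 and 1.57 ± 0.21. Ly6a, which encodes the surface antigen Sca-1, rose by 2.01 ± 0.28 in WT and 1.32 ± 0.28 in KO. Between KO and WT, Ube2l6 after syngeneic transplantation was the only called gene of the receptor, sensing, brake, other interferon stimulated and GTPase lists, and after allogeneic transplantation edgeR called none of them.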

How the data were processed

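Total RNA of sorted splenic T cells was sequenced after ribosomal RNA removal (KAPA RNA HyperPrep Kit with RiboErase, per the labels' protocols). The deposited table holds expected counts per gene, values that need not be whole; Bowtie2 2.2.1, TopHat2 2.0.13, Cuffdiff 2.2.1, Cufflinks and the build GRCm38 are named without a role in the submitters' processing notes, and the annotation and strand setting are not given in the sources used here. Of 18 value columns, 6 carry names that match no sample and were not used; the labels describe 18 samples.

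Counts were rounded and fitted with edgeR 4.0.16 in R 4.3.3: filterByExpr with a minimum count of 10, TMM scaling, 1 mean per group over 12 libraries, robust quasi-likelihood test (8 residual degrees of freedom, biological coefficient of variation 0.249), and Benjamini-Hochberg adjustment over 18447 genes, with calls at 0.05. CPM were TMM-adjusted. Standard errors are the log2 fold change divided by the root of the F statistic, and intervals are at 95%. Fits were tested on simulated data. Limits from a count of 0 (3 counts) cover counting error only. The labels call the 3 libraries of a group biological triplicates. Positions are from GENCODE (GRCm38), promoters from RefSeq.

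Every member could be named. Values in every library were given for 12 members (Isg15, Ifit1, Ifit3, Irf7, Stat2, Usp18, Mx1, Oas3, Rsad2, Bst2, Zbp1, Ifih1) and for the called member of smallest p in each role, plus Oas2, Isg20 and Cmpk2, chosen after their values were seen; of each pathway list up to 4 called genes of smallest p, with Gbp2 and Uba7, and the red cell genes Hbb-bs and Alas2, added after their values were seen. The members and lists (ligands, receptors and signalling, sensing, brakes, other interferon stimulated genes, interferon gamma GTPases, and markers of T, plasmacytoid dendritic, myeloid, B, red cell precursor and NK cells) were chosen with earlier results of these data known.

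In syngeneic WT and KO, residuals of same-numbered libraries correlated across genes at 0.17 to 0.545, against -0.501 to 0.363 for other numbers. The numbers were taken to pair these libraries, which the correlations do not establish. Syngeneic WT replicate 2 correlated more with syngeneic KO replicate 3 (0.363) than with syngeneic KO replicate 2 (0.170). Same-numbered syngeneic KO and allogeneic WT libraries also correlated above 0 in every pair, but weakly (0.0475 to 0.102), and were not taken as paired. In each remaining pair of groups, some same-numbered correlations were below 0. Alternatives were RLE size factors, no filter, fits of the 2 groups alone, replicate blocks, leaving out each library, leaving out ribosomal RNA genes and DESeq2 1.42.0. Leaving out Gm26917 and Yam1 as well as ribosomal RNA genes was chosen after seeing the data.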

Additional observations from a re-analysis of the deposited data

Results flagged for a closer look

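Rsad2 was the only member for which edgeR called a difference between transplant types in the effect of genotype (DESeq2 also called Isg20, adjusted p = 0.0181). The interaction of Rsad2 was 3.40 ± 0.43 on the log2 scale (edgeR, adjusted p = 0.00583): KO against WT was -3.68 after syngeneic and -0.28 after allogeneic transplantation. All 3 syngeneic WT libraries, at 80.2 to 160 CPM, stood above the other 9, which lay between 4.14 and 13.8. Summed markers of red cell precursors were 2119 to 4821 CPM in those 3 libraries and at most 91.7 in the others, and their part in the difference was not tested.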

How the results depend on the processing

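No called member changed direction under any alternative. In syngeneic KO against WT, 1 member was called in a fit of the 2 groups alone, 1 with a replicate block within them and 5 by DESeq2, against 2, and leaving out a library gave 1 to 5. DESeq2 called 2 members for the interaction, against 1. Leaving out a library gave 13 to 16 calls for allogeneic against syngeneic WT (13 without allogeneic WT replicate 1), 10 to 15 in KO, 0 for allogeneic KO against WT and 1 for the interaction. With a replicate block over all 12 libraries the counts were 19, 14, 2, 0 and 1. Across 476 member values per comparison, 41 lost and 7 gained a call in WT, 35 and 2 in KO, 7 and 9 in syngeneic KO against WT. Over all genes, calls in KO by transplant type were 2669 in a fit of 2 groups and 2266 with the replicate block within them, against 4500; in syngeneic KO against WT 349, 1287 and 1009 by DESeq2, against 622, and 260 to 742 on leaving out a library (260 without syngeneic WT replicate 2, 280 without its replicate 3, 410 and 266 without syngeneic KO replicates 1 and 2); in allogeneic KO against WT 6 in that fit and 77 by DESeq2, against 10, and 3 without any 1 of the allogeneic WT libraries; and for the interaction 294 by DESeq2, against 88, 242 without syngeneic WT replicate 1, 28 to 41 without any 1 of 9 other libraries, and 60 and 96 without allogeneic WT replicate 1 and syngeneic KO replicate 3. With 3 libraries a group, small changes of scarce genes were not detectable.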
